A study of Mus musculus with 11 samples.

Results

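Expression of the BL6 and the CAST copy of each autosomal gene was compared in the hippocampus of 5 old female F1 mice from reciprocal crosses of BL6, the common laboratory strain, and CAST, a wild-derived strain. Each F1 mouse carries 1 chromosome set of each strain, and RNA-seq reads that cover a base at which the strains differ can be assigned to a copy. The old mice were 101 to 104 weeks old. A BL6 mother and a CAST father had borne old mice 1, 2 and 5, and a CAST mother and a BL6 father had borne old mice 3 and 4. For comparison, 6 young female mice of 8 to 9 weeks were used, of which mice 3, 4 and 6 had a BL6 mother and mice 1, 2 and 5 a CAST mother. The labels name no treatment, and each mouse gave 1 library of polyadenylated RNA, sequenced with strand information in paired reads. The allele columns are named i4fb and cast, and i4fb was taken to mean BL6. Of 55401 genes in the allelic count table, 17015 autosomal genes had at least 50 allelic reads in every old mouse and are the subject here.

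In an F1 animal both copies of a gene lie in the same nuclei and meet the same transcription factors, hormones and surroundings. A difference between the copies is therefore known in the field as a cis difference, as opposed to one that arises elsewhere in the genome and reaches both copies alike. Imprinted genes are the known exception, because there the parent that transmitted a copy, and not its strain, sets its expression. The hippocampus holds pyramidal and granule neurons, interneurons, astrocytes, oligodendrocytes and their precursors, microglia and vessels, and in aged tissue the glial and immune genes are those best known to change. The share of a gene's allelic reads that came from the BL6 copy, the BL6 share, is the value given throughout, and 50% means equal reads from both copies. A log2 difference is the BL6 copy over the CAST copy, so that 1 is a 2-fold excess of BL6 and -1 a 2-fold excess of CAST. It comes from edgeR's quasi-likelihood test with terms for mouse, maternal copy and BL6 copy, and a gene is called where its adjusted p over all 17015 genes is under 0.05. The submitters' notes name alignment to GRCm38, which is a BL6 genome, and the method that assigned reads to a copy is not given in the sources used here.

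Each old library held 129.4 to 173.5 M counts (M, 1e6), of which 46.6 to 61.7 M, or 35.4% to 36.4%, were assigned to a copy. The BL6 copies together supplied 50.7% to 50.9% of autosomal allelic reads in each old mouse. Imprinted genes followed the labelled mothers. The BL6 share of Meg3, a long RNA read from the maternal copy, was at least 99.9% in old mice 1, 2 and 5 and at most 0.5% in old mice 3 and 4, and that of Peg3, read from the paternal copy, was at most 0.1% in old mice 1, 2 and 5 and at least 99.9% in old mice 3 and 4. The maternal term was called for 136 genes, 0.799% of those tested (236 without old mouse 2). Prox1 of dentate granule cells stood at 92.7 to 157 CPM (counts per 1e6) and Fibcd1 of CA1 pyramidal cells at 104 to 184 CPM in every old library. The dissections differed in neighbouring tissue, though none of the markers listed was at 0 in all old libraries. Ttr, the transthyretin gene that marks choroid plexus, stood at 5.17, 899, 839, 13.2 and 82.1 CPM in old mice 1 to 5, and all 14 choroid plexus markers summed to 196, 1722, 1640, 207 and 342 CPM. Drd2, the striatal dopamine receptor gene, stood at 34.8 CPM in old mouse 3 and at 1.67 to 3.44 CPM in the other old mice, and all 10 striatal markers summed to 1313 CPM there, against 203 to 295 CPM in the others. Nothing says how the mice relate by litter or batch, so the p-values measure only the spread between these 5 mice.

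Strain differences were widespread and mostly small. Of the 17015 genes, 10622 (62.4%) were called, 6654 with the BL6 copy higher (39.1%) and 3968 with the CAST copy higher (23.3%). The middle 90% of genes had a mean BL6 share between 39.0% and 64.9%, with a median of 51.1%, and 10823 genes lay between 45% and 55%. A difference of at least 2-fold was called for 698 genes with BL6 higher (4.1%) and 463 with CAST higher (2.72%). In 10291 genes (60.5%) all 5 mice lay on the same side of 50%, and this held for 9543 of the called genes. The spread between mice was narrow, with a median SD of the BL6 share of 2.05 percentage points. The excess of BL6-higher calls depends on the scaling: where each allele column was scaled by its own TMM factor and total, 5425 genes were called with BL6 higher and 5138 with CAST higher, so that 51.4% of calls in place of 62.6% favoured BL6. That scaling moved the median log2 difference to 0.01 from 0.06. List counts given below with own scaling are to be read against these 5425 and 5138 of 17015 genes. The 39.1% and 23.3% belong to the main scaling only.

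**Figure D1:**
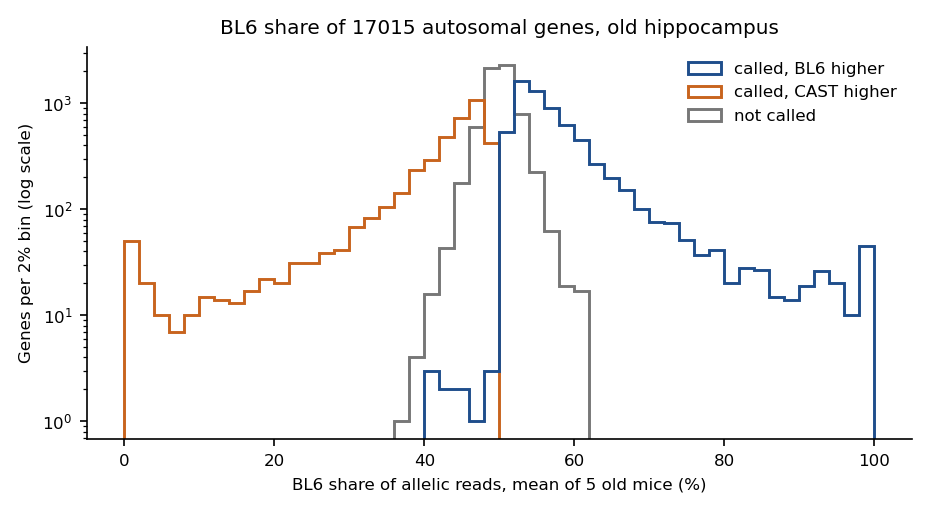
Number of autosomal genes (log axis) by mean BL6 share of allelic reads over 5 old mice (% in bins of 2), drawn apart for genes called with the BL6 copy higher, genes called with the CAST copy higher and genes not called. Most of the 17015 genes sit near the median of 51.1%, with a small peak of genes read almost only from 1 copy at each end, and 11 genes called BL6 higher have a mean share under 50%.

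The difference was larger in some kinds of gene. Of 13079 protein-coding genes 4.6% were called with at least a 2-fold difference, against 24.5% of 445 lincRNAs, which are long intergenic non-coding RNAs, and 43.3% of 351 processed pseudogenes, which are inserted copies of spliced messages. The share called rose with read depth. Of 4 classes of equal size, the class with fewest allelic reads had 51.2% of genes called and that with most had 74.2%. Differences of at least 2-fold made up 15.7% and 1.25%. The classes hold different genes, and the part of depth in this was not tested. Across chromosomes the share called ran from 59.3% to 65%. Chromosome 13 had the highest share past 2-fold, 10.7%. Of the members, 8387 overlap another measured gene, and whether the counting used strand is not stated, so reads of such neighbours cannot be told apart. Among the genes named below these are Adarb2, Aldh1l1, Amigo2, Apobec3, App, Arg2, Cdh23, Ciita, Cnp, Cp, Csf1r, Ctsl, Cyfip2, Cyp51, Dsp, Dusp1, Enpp2, Eps8l3, Fgfr3, Glo1, Gm28967, Gm48780, Gpr17, Grin2b, Grm5, Hmgcs1, Kcnj9, Lhfpl3, Lss, Mobp, Ncapd2, Nnt, Nrxn2, Pcp4, Rpl28, S100b, Scarna10, Sfi1, Sstr2, Tagln, Tdg, Tmc3, Tnr, Vamp1, Vcp and Vti1b. Transcripts of 157 named genes were also compared with all other transcripts, and 38 of them matched another gene over at least 100 bases at 95% identity or more. For these genes the split of reads between copies is uncertain. With the number of other genes matched they are Ccl9 (73), Lpl (44), Glo1 (36), Sv2c (32), Ctsl (29), Gabra2 (18), Kl (13), Vamp1 (3), Apobec3 (2), Ly6c1 (2), Selplg (2), Cd55 (1), H2-DMb1 (1), Nat8f2 (1), Samd9l (1), Sfi1 (1), Traf1 (1) and Vcp (1), besides those whose matches are given with their values below.

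Among protein-coding genes with at least 200 allelic reads on average, a weaker copy above 5% and all 5 mice on the same side, the largest BL6 excesses included the class I antigen-presenting genes H2-D1 and H2-K1 and Stmn1, which encodes the microtubule-destabilising protein stathmin. Stmn1 (chromosome 4, 134468320 to 134473843) had 3145, 1716, 2175, 2078 and 5088 BL6 reads in old mice 1 to 5, against 194, 114, 147, 164 and 315 CAST reads. Its BL6 share was 93.7% ± 0.612 (SD, n = 5), a log2 difference of 3.88 (SE 0.043, edgeR adjusted p = 6.63e-19), where 15.8% of its counts could be assigned. Every mouse thus had more than 10 BL6 reads for each CAST read. The others of the leading 8 were Serpinb1a, an inhibitor of neutrophil proteases, at 94.6% ± 2.49, Ubb, a polyubiquitin gene, at 94.0% ± 1.55, Eps8l3, a relative of the actin regulator EPS8, at 93.6% ± 0.856, Kcng4, a modifying subunit of voltage-gated potassium channels, at 93.2% ± 1.91, and Tmc3, of the TMC family of membrane proteins, at 93.0% ± 2.15 (SD, n = 5 each). Ubb matches 4 other genes, 3 of them pseudogenes, and Stmn1 matches 1 pseudogene.

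The largest CAST excesses were in Traf1, an adaptor of tumour necrosis factor receptors. The BL6 share of Traf1 was 7.06%, 6.71%, 12.6%, 7.65% and 9.66% in old mice 1 to 5, a log2 difference of -3.36 (SE 0.12, edgeR adjusted p = 8.58e-13), so that no mouse read more than 12.6% from BL6. Rpl6, a protein of the large ribosomal subunit with 5 matching pseudogenes, had a BL6 share of 10.9% ± 2.44. The others were Cenps of the kinetochore at 11.2% ± 3.22, the centrin-binding gene Sfi1 at 11.1% ± 1.35, the chemokine gene Ccl9 at 11.7% ± 1.55, the glutathione transferase gene Gstm7 at 12.6% ± 0.984, Chp2, which encodes a calcium-binding partner of sodium-proton exchangers, at 12.4% ± 5.07, and Nat8f2, of the NAT8 acetyltransferase family, at 13.6% ± 2.06 (SD, n = 5 each).

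Some genes were read almost only from 1 copy, with under 5% of reads from the weaker one. These were 66 genes from BL6 and 79 from CAST, of which 11 and 10 were protein-coding. Those named here are protein-coding genes with a given symbol, taken by depth. The deepest from BL6 were Dsp, the desmosome protein desmoplakin, Pon2, a paraoxonase, Pttg1, the securin of cell division, Fam205c and Spink10, with mean shares of 95.3%, 95.04%, 97.1%, 95.3% and 97.3%. The deepest from CAST were Hjurp, a chaperone of the centromeric histone, Tspan10, the histone gene Hist1h4m, the myosin gene Myo3a and the cytochrome P450 gene Cyp2j13, with mean BL6 shares of 3.99%, 3.90%, 0.919%, 1.04% and 4.10%. Hist1h4m matches 7 other genes.

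Homeostatic microglia genes, which resting brain macrophages express, were mostly higher from the BL6 copy where they differed. Of 13 measured, 7 were called with BL6 higher and 1 with CAST higher, against 39.1% and 23.3% of all genes, and the median log2 difference was 0.12, against 0.06 over all genes; with own scaling of each column the counts were the same. Called members in all made up 61.5%, close to the 62.4% of all genes. The exception was Fcrls, an Fc receptor-like gene used as a marker of microglia (chromosome 3, 87250758 to 87263738). Fcrls had 553, 442, 389, 441 and 429 BL6 reads in old mice 1 to 5, against 1446, 950, 962, 1046 and 1145 CAST reads. The BL6 share was 29.0% ± 1.79 (SD, n = 5), a log2 difference of -1.29 (SE 0.050, edgeR adjusted p = 3.45e-12). All 5 mice read more than 2 CAST fragments for each BL6 fragment, and young mice ran from 28.9% to 34.8% (median 31.3%). On the BL6 side, Selplg, the P-selectin ligand of leukocytes and microglia, had shares of 65.7%, 68.2%, 63.6%, 67.0% and 65.4% in old mice 1 to 5 (edgeR adjusted p = 8.65e-10). Siglech, a sialic acid-binding receptor, averaged 61.6% ± 1.601, and Trem2, the lipid-sensing receptor of microglia, averaged 60.4% ± 1.49 (SD, n = 5 each; edgeR adjusted p = 3.69e-07 and 1.05e-06). Csf1r, the growth factor receptor that microglia need to survive, was the deepest member not called, at 50.8% ± 0.513 (log2 difference 0.04, edgeR adjusted p = 0.118).

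The promoter of Fcrls is shown with those of the 3 other 2-fold examples described below, the complement gene C3 and the neuronal receptor genes Npy2r and Gabra2. They are RefSeq sequences of GRCm38.p6, from 250 bases before to 50 bases after the start of each gene, on the minus strand, and give the letters of the BL6 reference; CAST letters were not used here. RefSeq starts Fcrls inside the GENCODE gene whose ends are given above, so that this window lies mostly within that gene. Capitals mark matches on either strand to TATAAA (the TATA box), GGGCGG (the GC box bound by Sp1) or GAGGAA (the core bound by PU.1, a transcription factor of myeloid cells), none of which overlap here.
Fcrls, chr3:87263475-87263774: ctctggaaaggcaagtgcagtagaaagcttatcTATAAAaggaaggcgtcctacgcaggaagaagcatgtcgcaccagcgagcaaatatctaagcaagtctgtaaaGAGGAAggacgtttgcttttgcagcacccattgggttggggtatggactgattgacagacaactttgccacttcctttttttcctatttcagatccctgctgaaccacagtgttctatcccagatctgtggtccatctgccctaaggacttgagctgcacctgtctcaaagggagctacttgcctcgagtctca
C3, chr17:57228087-57228386: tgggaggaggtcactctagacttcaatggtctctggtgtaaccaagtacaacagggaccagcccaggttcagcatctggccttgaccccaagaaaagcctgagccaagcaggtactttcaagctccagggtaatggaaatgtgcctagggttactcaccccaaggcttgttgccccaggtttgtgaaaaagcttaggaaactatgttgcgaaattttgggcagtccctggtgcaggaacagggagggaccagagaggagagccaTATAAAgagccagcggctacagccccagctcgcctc
Npy2r, chr3:82548036-82548335: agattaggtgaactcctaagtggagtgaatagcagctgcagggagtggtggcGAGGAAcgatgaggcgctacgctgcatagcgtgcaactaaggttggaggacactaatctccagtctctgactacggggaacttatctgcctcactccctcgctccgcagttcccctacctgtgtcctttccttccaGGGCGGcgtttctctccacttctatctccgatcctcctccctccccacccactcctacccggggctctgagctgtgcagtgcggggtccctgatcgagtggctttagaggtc
Gabra2, chr5:71095800-71096099: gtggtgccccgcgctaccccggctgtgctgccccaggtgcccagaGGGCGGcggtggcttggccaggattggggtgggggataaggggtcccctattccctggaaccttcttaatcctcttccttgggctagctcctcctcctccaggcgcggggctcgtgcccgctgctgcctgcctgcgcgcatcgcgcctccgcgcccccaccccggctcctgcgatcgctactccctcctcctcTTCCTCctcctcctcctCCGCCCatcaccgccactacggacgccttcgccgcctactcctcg
Of 32544 such promoters, 13.57% hold TATAAA, 35.88% hold GGGCGG and 28.12% hold GAGGAA. The Fcrls window holds TATAAA and GAGGAA once each, that of C3 holds TATAAA, that of Npy2r holds GGGCGG and GAGGAA, and that of Gabra2 holds GGGCGG on both strands and GAGGAA on the opposite strand. A match is a run of letters and not evidence of binding.

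Of 14 genes of aging and disease-associated microglia, 5 were called BL6 higher and 6 CAST higher, against 39.1% and 23.3% of all genes. With own scaling of each column the counts were 4 and 7. Lpl, the lipoprotein lipase made by lipid-handling microglia, had BL6 shares of 34.9%, 34.8%, 35.8%, 35.9% and 34.4% in old mice 1 to 5 (log2 difference -0.87, SE 0.032, edgeR adjusted p = 1.68e-12). Its 5 values lie within 2 percentage points of each other. Which cells supplied the Lpl reads cannot be told in bulk tissue. Lyz2, the lysozyme of macrophages, averaged 37.1% ± 2.63 and Spp1, the secreted protein osteopontin, averaged 42.1% ± 3.89 (SD, n = 5 each; edgeR adjusted p = 1.65e-07 and 0.000229). Lyz2 matches 1 other gene. Axl, a receptor by which phagocytes recognise dying cells, lay on the BL6 side at 55.8% ± 0.998 (edgeR adjusted p = 9.59e-08).

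Complement genes, whose products tag synapses and debris for removal, held some of the largest differences, and these ran both ways. Of 15 measured, 7 were called BL6 higher and 5 CAST higher, and 80.0% were called, against 62.4% of all genes (7 and 6 with own scaling). C3, the central component (chromosome 17, 57203970 to 57228136), had 94, 124, 130, 106 and 41 BL6 reads in old mice 1 to 5, against 393, 473, 497, 353 and 214 CAST reads. The BL6 share was 19.996% ± 2.58 (SD, n = 5; log2 difference -1.96, SE 0.082, edgeR adjusted p = 8.33e-12), so that each old mouse had at least 3 CAST reads for each BL6 read. Cd59a, which blocks the membrane attack complex, stood the other way, with BL6 shares of 71.2%, 69.9%, 76.6%, 72.5% and 75.8% (log2 difference 1.48, SE 0.10, edgeR adjusted p = 2.36e-09). Cd55, the membrane-bound decay accelerating factor, averaged 39.6% ± 3.68 (SD, n = 5) and lay on the CAST side in all 5 mice. C4b, the component known to climb in the aging brain, had shares of 42.7%, 44.3%, 41.5%, 42.8% and 42.7% (log2 difference -0.42, SE 0.023, edgeR adjusted p = 1.64e-10), with 8410 to 10012 allelic reads a mouse. C4b matches its duplicate C4a.

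**Figure D2:**
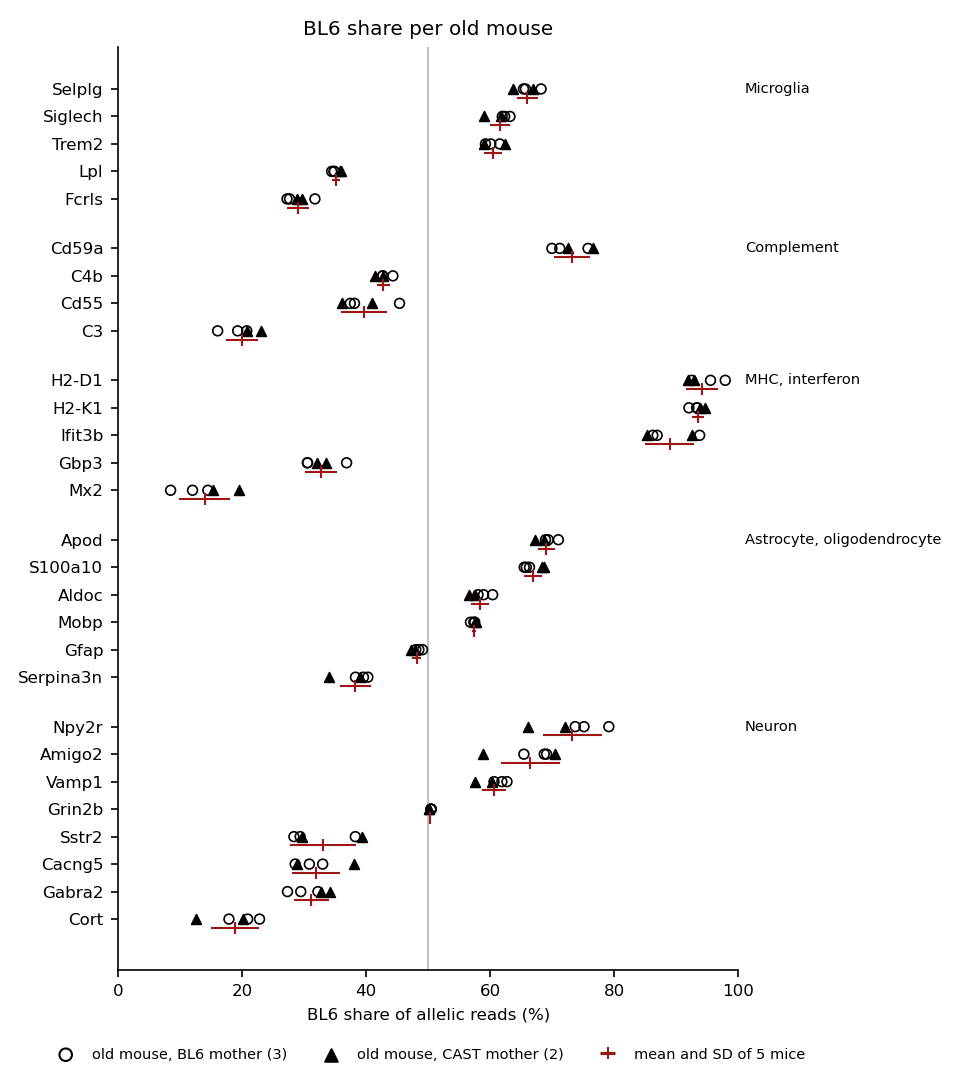
BL6 share of allelic reads (%) in each of 5 old mice for genes of microglia, complement, antigen presentation and interferon response, astrocytes and oligodendrocytes, and neurons; circles are mice with a BL6 mother, triangles mice with a CAST mother, and red marks the mean with its SD. The mice of both crosses lie on the same side of 50% in each gene shown, for example C3 between 16.1% and 23.1%, and Grin2b stays within 50.1% to 50.5%.

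Class I antigen presentation genes were called in both directions, 6 of 19 with BL6 higher and 5 with CAST higher (5 and 8 with own scaling). Called members made up 57.9%, against 62.4% of all genes, and the 3 differences past 2-fold all favoured BL6. H2-K1 had 1070, 831, 943, 704 and 1026 BL6 reads in old mice 1 to 5, against 76, 60, 62, 40 and 89 CAST reads, and H2-D1 had BL6 shares of 97.9%, 92.5%, 92.8%, 91.8% and 95.5%. The log2 differences were 3.86 (SE 0.071, edgeR adjusted p = 3.99e-16) and 3.98 (SE 0.13, edgeR adjusted p = 2.54e-13). H2-T22, a non-classical member, averaged 69.6% ± 4.92, while H2-M3, which presents formylated peptides, averaged 38.6% ± 2.28 (SD, n = 5 each; edgeR adjusted p = 5.53e-06 and 0.0011). The genes of this complex are among the most polymorphic and most duplicated of the mouse: H2-D1 matches 4 other genes and H2-T22 matches 11, so their shares are uncertain. H2-K1 had no such match, but its reads too were aligned to a BL6 genome. The part of that alignment in these shares was not tested. Canx, the chaperone calnexin, was the deepest member not called, at 50.1% ± 0.339.

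Of 7 class II genes measured, 3 were called BL6 higher and 2 CAST higher (2 of each with own scaling), or 71.4% (all genes, 62.4%). Ciita, the master activator of class II genes, had BL6 shares of 63.3%, 58.4%, 57.5%, 60.7% and 65.4% (edgeR adjusted p = 3.78e-06), and Ctss, the protease that frees class II molecules for peptide, averaged 59.9% ± 1.20 (SD, n = 5; edgeR adjusted p = 1.54e-10). H2-DMb1, a subunit of the peptide exchange factor, averaged 33.0% ± 8.96 (edgeR adjusted p = 6.77e-05), and its mice varied widely, from 23.8% to 44.5%.

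Interferon-stimulated genes held wide differences at low read depth. Of 22 measured, 8 were called BL6 higher and 5 CAST higher (8 and 7 with own scaling), or 59.1%, against 62.4% of all genes. Past 2-fold were 4 of the 22 (18.2%), against 6.82% of all genes. In the class of all genes with fewest allelic reads that share was 15.7%. Mx2, an antiviral GTPase that is defective in many laboratory strains, had 13, 20, 28, 18 and 16 BL6 reads in old mice 1 to 5, against 140, 118, 116, 99 and 117 CAST reads (BL6 share 14.0% ± 4.06, SD, n = 5; log2 difference -2.57, edgeR adjusted p = 9.92e-10). Ifit3b, a sensor of viral RNA, had 105, 73, 69, 49 and 75 BL6 reads, against 7, 11, 12, 4 and 12 CAST reads (share 88.9% ± 3.91; log2 difference 2.96, edgeR adjusted p = 1.52e-08). The pair thus lay far apart on opposite sides in each mouse, and both match 1 other gene. Gbp3, a guanylate-binding protein, averaged 32.7% ± 2.62 and Samd9l, an antiviral translation inhibitor, 33.0% ± 3.57 (SD, n = 5 each; edgeR adjusted p = 8.72e-08 and 4.5e-05).

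Of 20 astrocyte genes, 6 were called BL6 higher and 9 CAST higher (5 and 12 with own scaling), or 75% (all genes, 62.4%). None passed 2-fold. Aldoc, the brain aldolase, had 31802 to 52125 allelic reads a mouse and BL6 shares of 60.4%, 58.9%, 56.6%, 57.5% and 58.0% (log2 difference 0.47, SE 0.019, edgeR adjusted p = 4.69e-12). Aldh1l1, a folate enzyme used as a pan-astrocyte marker, averaged 55.8% ± 0.822. On the other side Fgfr3, a growth factor receptor, averaged 42.7% ± 1.32 and S100b, a calcium-binding protein, 43.5% ± 2.25 (SD, n = 5 each). Of the counts of S100b only 5.68% could be assigned to a copy. All of these were called, and in each the 5 mice lay on 1 side.

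Of 17 reactive astrocyte genes, 6 were called BL6 higher and 9 CAST higher, also with own scaling, or 88.2% (all genes, 62.4%). Their median log2 difference was -0.11, against 0.06 over all genes. S100a10, the annexin A2 partner of protective reactive astrocytes, had BL6 shares of 65.8%, 65.5%, 68.3%, 68.7% and 66.3% (log2 difference 1.03, SE 0.043, edgeR adjusted p = 7.7e-12). Cd109, a protease inhibitor of the cell surface, Tm4sf1, a tetraspanin-like protein, and Cp, the copper oxidase ceruloplasmin, averaged 64.5% ± 3.45, 61.7% ± 6.07 and 62.8% ± 3.71. Serpina3n, the protease inhibitor that marks reactive astrocytes, stood at 39.6%, 40.3%, 34.1%, 39.1% and 38.3% (log2 difference -0.70, edgeR adjusted p = 3.63e-10). Gfap, the intermediate filament of astrocytes, was read 39569 to 78036 times a mouse and differed little, at 48.1% ± 0.691 (log2 difference -0.11, SE 0.014, edgeR adjusted p = 3.81e-06).

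Of 21 myelin and oligodendrocyte genes, 12 were called BL6 higher and 4 CAST higher, against 39.1% and 23.3% of all genes. With own scaling the counts were 11 and 8, where 5425 and 5138 of all 17015 genes were called. Apod, a lipid carrier of oligodendrocytes and vessels, had 2511, 2473, 2180, 2215 and 2728 BL6 reads in old mice 1 to 5, against 1110, 1011, 1062, 1013 and 1231 CAST reads. Its BL6 share of 69.0% ± 1.35 (SD, n = 5; log2 difference 1.14, SE 0.032, edgeR adjusted p = 7.63e-14) made it the only member past 2-fold. Mobp, a structural protein of compact myelin, stood at 57.4%, 56.8%, 57.7%, 57.6% and 57.5% (log2 difference 0.43, SE 0.014, edgeR adjusted p = 3.63e-13), 5 values within 1 percentage point. The iron carrier gene Trf averaged 57.1% ± 0.593 and Aspa, which cleaves N-acetylaspartate, 57.2% ± 3.48. Cnp, a phosphodiesterase of myelin, was the deepest member not called, at 50.3% ± 0.287.

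Oligodendrocyte precursor genes had 9 of 14 called BL6 higher and 2 CAST higher (9 and 4 with own scaling), or 78.6% (all genes, 62.4%). Their median log2 difference was 0.16. The growth factor receptor gene Pdgfra, which defines these cells, averaged 54.7% ± 1.57 and Tnr, the matrix protein tenascin R, 54.6% ± 0.535. Lhfpl3, a membrane protein of precursors, averaged 57.4% ± 2.79. Gpr17, a receptor of cells about to mature, was the largest on the CAST side at 43.6% ± 1.83 (SD, n = 5 each; log2 difference -0.37, edgeR adjusted p = 1.2e-06).

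**Figure D3:**
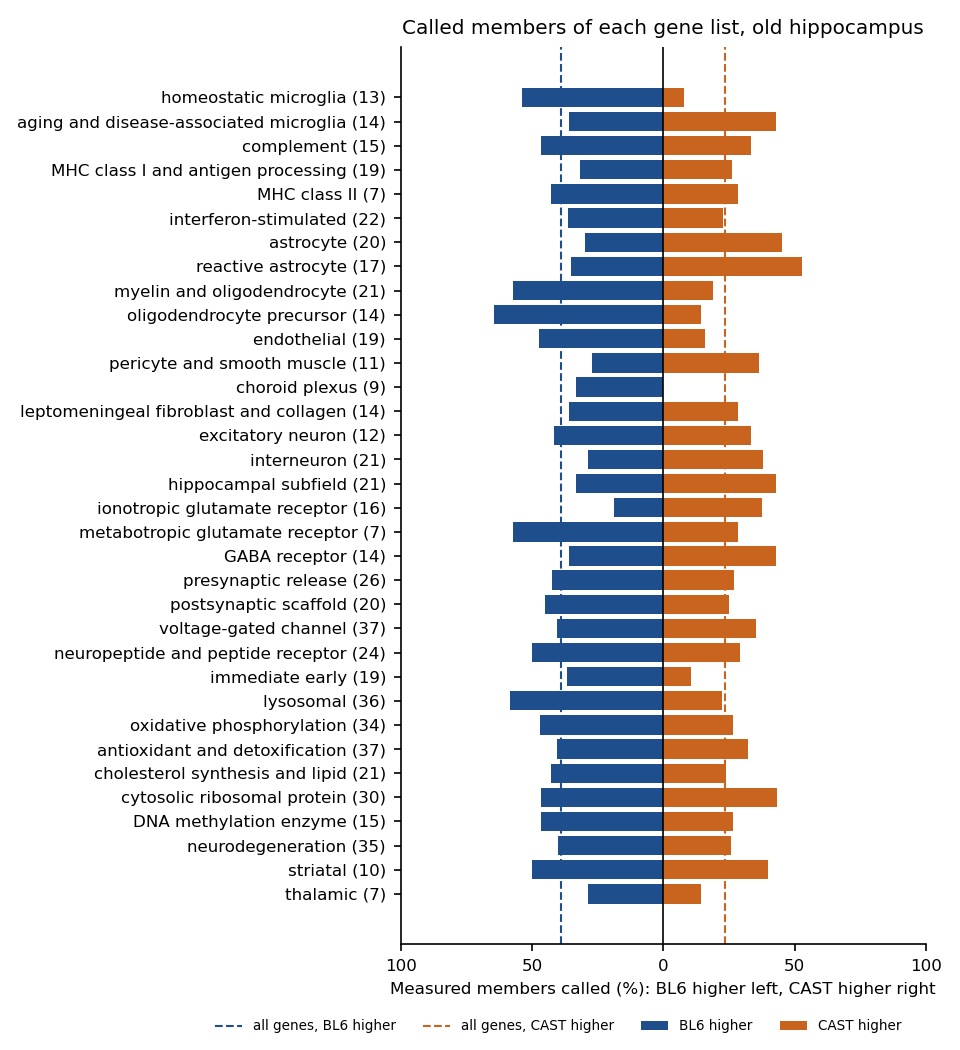
Measured members of each gene list (n in brackets) that were called, as a percentage, with the BL6 copy higher to the left and the CAST copy higher to the right; dashed lines give the 39.1% and 23.3% of all genes. Oligodendrocyte precursor (9 of 14) and lysosomal genes (21 of 36) reach furthest past the BL6 line, and reactive astrocyte genes (9 of 17) furthest past the CAST line.

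Of 19 endothelial genes, 9 were called BL6 higher and 3 CAST higher (7 and 3 with own scaling), or 63.2% (all genes, 62.4%). Ly6a, a surface antigen of brain vessels in many strains, had BL6 shares of 63.5%, 72.9%, 69.8%, 76.9% and 72.7% (log2 difference 1.35, SE 0.11, edgeR adjusted p = 3.05e-08), and its neighbour in the family Ly6c1 averaged 62.0% ± 5.19. Slco1a4, a transporter of the blood-brain barrier, averaged 56.8% ± 1.85. Of 11 pericyte and smooth muscle genes, 3 were called BL6 higher and 4 CAST higher (3 and 6 with own scaling), or 63.6% (all genes, 62.4%). Rgs5, a regulator of G protein signalling in pericytes, had shares of 60.6%, 66.6%, 65.9%, 66.9% and 65.3%, and Vtn, the adhesion protein vitronectin, averaged 62.9% ± 2.11. Tagln, a contractile protein of smooth muscle, averaged 60.7% ± 8.09, and its mice spread from 50.6% to 72.1%.

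Genes of collagen and leptomeningeal fibroblasts included some of the larger matrix differences. Of 14 measured, 5 were called BL6 higher and 4 CAST higher (4 of each with own scaling), or 64.3% (all genes, 62.4%). Lama2, a laminin chain of basement membranes, had 1166, 929, 887, 892 and 959 BL6 reads in old mice 1 to 5, against 439, 352, 314, 317 and 370 CAST reads (BL6 share 73.0% ± 0.774, SD, n = 5; log2 difference 1.44, SE 0.045, edgeR adjusted p = 2.35e-13). Col5a1 of fibrillar collagen averaged 73.3% ± 3.90. Col6a1 of microfibrillar collagen lay the other way with 30.2%, 34.2%, 38.4%, 31.0% and 34.7% (log2 difference -0.95, edgeR adjusted p = 3.91e-10). All 5 mice separated Col5a1 and Lama2 from Col6a1 by more than 25 percentage points.

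Among 9 choroid plexus genes, 3 were called BL6 higher and 0 CAST higher, against 39.1% and 23.3% of all genes (3 and 2 with own scaling). For Kl and Sostdc1, but not for Ttr and Enpp2, the BL6 shares differed widely between mice. Ttr itself was close to equal, at 54.5%, 48.7%, 48.7%, 48.9% and 49.96% (edgeR adjusted p = 0.12, and 0.0221 without old mouse 1), and Enpp2, which makes the signalling lipid lysophosphatidic acid, averaged 52.1% ± 0.528. Kl, the anti-aging hormone receptor klotho that choroid plexus and neurons both express, had 1288, 2882, 2600, 712 and 1411 BL6 reads in old mice 1 to 5, against 254, 1869, 1858, 129 and 478 CAST reads, and shares of 83.5%, 60.7%, 58.3%, 84.7% and 74.7% (log2 difference 1.13, SE 0.20, edgeR adjusted p = 0.000105). Sostdc1, a secreted inhibitor of BMP and Wnt signals, had shares of 83.2%, 29.7%, 28.9%, 76.0% and 46.6% and was not called (log2 difference -0.66, SE 0.29, edgeR adjusted p = 0.0601). The BL6 shares of both were highest in old mice 1 and 4, whose libraries had 5.17 and 13.2 CPM of Ttr, lower in old mouse 5 with 82.1 CPM, and lowest in old mice 2 and 3 with 899 and 839 CPM. Which copy of Sostdc1 was higher changed with the mice: the log2 difference was 0.60 without old mouse 3, -0.87, -0.91 and -0.75 and called without old mouse 1, 4 or 5 (edgeR adjusted p = 0.00468, 0.00628 and 0.0325), and 1.12 in old mice 1, 4 and 5 alone (edgeR adjusted p = 6.12e-07), a set chosen after these values were seen. Dsp was likewise highest in old mice 1 and 4 and lowest in old mice 2 and 3, with shares of 99.8%, 91.8%, 87.7%, 99.6% and 97.7%. These relations rest on 5 libraries, and the part of choroid plexus RNA in them was not tested; fewer cells of a type cannot be told from less RNA per cell in such bulk tissue.

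**Figure D4:**
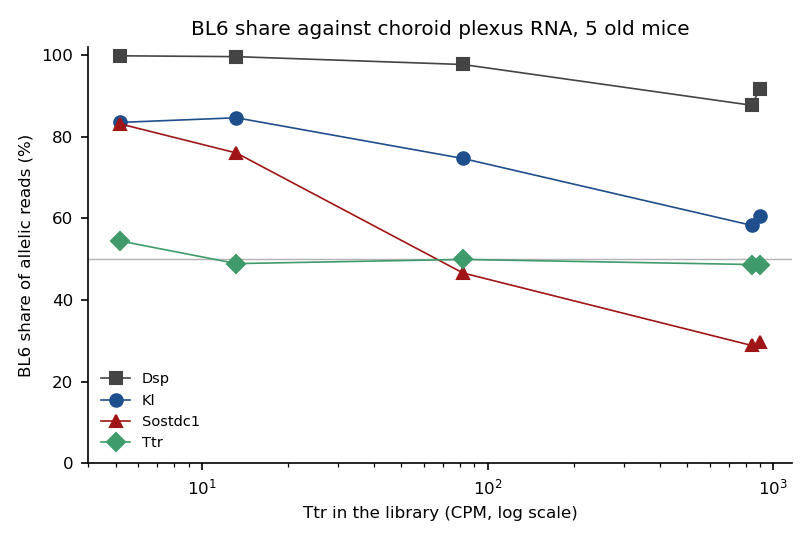
BL6 share of allelic reads (%) of Dsp, Kl, Sostdc1 and Ttr in each of 5 old mice, plotted against the CPM of Ttr in the same library (log axis). Kl and Sostdc1 run from above 74% and 46% in the 3 libraries with least Ttr to 60.7% and 29.7% or less in the 2 with most, while Ttr stays between 48.7% and 54.5%.

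Of 12 excitatory neuron genes, 5 were called BL6 higher and 4 CAST higher (3 and 6 with own scaling), or 75% (all genes, 62.4%). Slc17a7, the vesicular glutamate transporter VGLUT1, had 70236 to 139467 allelic reads a mouse and shares of 46.0%, 46.6%, 46.7%, 47.2% and 47.5% (log2 difference -0.18, SE 0.014, edgeR adjusted p = 9.96e-09). Itpka, a dendritic inositol kinase, averaged 45.0% ± 0.934 (edgeR adjusted p = 7.39e-08). Both lay on the CAST side in all 5 mice. Of 21 interneuron genes, 6 were called BL6 higher and 8 CAST higher (4 and 8 with own scaling), or 66.7% (all genes, 62.4%). Cort, the peptide cortistatin of a subset of interneurons, had 21, 17, 26, 13 and 23 BL6 reads in old mice 1 to 5, against 71, 78, 103, 90 and 87 CAST reads (BL6 share 18.9% ± 3.92, SD, n = 5; log2 difference -2.13, edgeR adjusted p = 2.01e-08). Adarb2 of the RNA-editing deaminase family averaged 40.4% ± 2.37 and Npy, neuropeptide Y, 56.0% ± 2.42. Tac1, the substance P gene, varied between mice, with 53.0%, 67.0%, 53.0%, 70.3% and 56.8% (edgeR adjusted p = 0.0094 with all mice). Its call held in 12 of 16 alternative fits and filters, and was lost without old mouse 2, among others (edgeR adjusted p = 0.0504).

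Of 21 genes that mark hippocampal subfields, 7 were called BL6 higher and 9 CAST higher (7 and 11 with own scaling), or 76.2% (all genes, 62.4%). Amigo2, an adhesion protein enriched in CA2 and CA3, had BL6 shares of 69.1%, 68.7%, 58.8%, 70.4% and 65.4% (log2 difference 0.97, SE 0.078, edgeR adjusted p = 2.12e-08). Cacng5, an AMPA receptor auxiliary subunit found in CA2, had shares of 28.6%, 33.0%, 38.0%, 28.9% and 30.9% (log2 difference -1.07, SE 0.069, edgeR adjusted p = 1.71e-09). Pcp4, a calmodulin regulator also of CA2, averaged 37.9% ± 2.86 (edgeR adjusted p = 3.24e-10). In Cacng5, Pcp4 and Amigo2 alike the share nearest to 50% was that of old mouse 3, whose library held the most striatal marker RNA, 1313 CPM; its part in this was not tested.

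Of 16 ionotropic receptor genes, 3 were called BL6 higher and 6 CAST higher (0 and 10 with own scaling), or 56.2% (all genes, 62.4%). The median absolute log2 difference was 0.08, against 0.20 over all genes, and none passed 2-fold. The largest were the AMPA subunit gene Gria4 at 41.9% ± 1.502 and the NMDA subunit gene Grin3a at 42.2% ± 3.22 (SD, n = 5 each; edgeR adjusted p = 6.53e-08 and 2.32e-06). Grin2b, the NMDA subunit prominent in plastic synapses, was read 83683 to 174070 times a mouse and stood at 50.4%, 50.5%, 50.2%, 50.1% and 50.5% (log2 difference 0.02, SE 0.011, edgeR adjusted p = 0.181). Of 7 metabotropic receptor genes, 4 were called BL6 higher and 2 CAST higher (3 and 2 with own scaling), or 85.7% (all genes, 62.4%). Their median absolute log2 difference was 0.26, with Grm5 at 56.0% ± 0.785 and Grm8 at 58.9% ± 4.75.

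Of 14 GABA receptor genes, 5 were called BL6 higher and 6 CAST higher (1 and 8 with own scaling), or 78.6% (all genes, 62.4%). Gabra2 stood apart. Gabra2 encodes the alpha-2 subunit of inhibitory synapses (chromosome 5, 70957597 to 71095849), and the C57BL/6J substrain is known to carry an intronic deletion that lowers it; the BL6 substrain of these crosses is not named in the labels. It had 3231, 2030, 2001, 2436 and 2104 BL6 reads in old mice 1 to 5, against 7733, 4267, 3848, 5009 and 5595 CAST reads. The BL6 share was 31.2% ± 2.76 (SD, n = 5; log2 difference -1.12, SE 0.036, edgeR adjusted p = 3.31e-13), below 35% in every old mouse. Gabrd, the subunit of extrasynaptic receptors on granule cells, averaged 57.9% ± 1.77, and Gabrg1 42.8% ± 2.02 (edgeR adjusted p = 1.96e-07 and 1.13e-05).

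Presynaptic release genes had 11 of 26 called BL6 higher and 7 CAST higher (7 and 10 with own scaling), or 69.2% (all genes, 62.4%). Vamp1, the synaptobrevin of fast vesicle fusion, had BL6 shares of 61.9%, 62.7%, 57.6%, 60.3% and 60.6% (log2 difference 0.60, SE 0.028, edgeR adjusted p = 3.34e-11), and Unc13b, a vesicle priming factor, averaged 59.4% ± 1.06. Sncb, beta-synuclein, lay on the CAST side at 43.5% ± 1.83. Sv2c, a vesicle protein enriched in striatum, was at 61.2%, 63.6%, 52.0%, 63.5% and 57.5%, lowest in old mouse 3 with its 34.8 CPM of Drd2; the part of striatal tissue in this was not tested. Of 20 genes in the postsynaptic scaffold list, 9 were called BL6 higher and 5 CAST higher (5 and 7 with own scaling), or 70% (all genes, 62.4%). Nrxn2, in that list but a presynaptic adhesion gene whose product binds neuroligins, stood at 54.4% ± 0.299 (SD, n = 5). That difference of a few percentage points was called (edgeR adjusted p = 1.18e-09). Of 10 striatal marker genes 5 were called BL6 higher and 4 CAST higher, and of 7 thalamic ones 2 and 1 (3 and 4, and 2 and 4, with own scaling). Called members made up 90% and 42.9%, against 62.4% of all genes.

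Among 37 voltage-gated channel genes, 15 were called BL6 higher and 13 CAST higher (9 and 18 with own scaling), or 75.7% (all genes, 62.4%). None passed 2-fold. Cacna1i, a T-type calcium channel, averaged 56.3% ± 0.920, and Scn3b, a sodium channel beta subunit, 43.7% ± 0.669 (SD, n = 5 each; edgeR adjusted p = 6.86e-09 and 1e-10). Neuropeptide genes and their receptors varied more, with 12 of 24 called BL6 higher and 7 CAST higher (10 and 8 with own scaling), or 79.2% (all genes, 62.4%). Npy2r, the Y2 receptor through which neuropeptide Y damps transmitter release (chromosome 3, 82538383 to 82548084), had 2034, 1382, 972, 1251 and 2053 BL6 reads in old mice 1 to 5, against 674, 493, 497, 485 and 542 CAST reads. Its BL6 share was 73.2% ± 4.73 (SD, n = 5; log2 difference 1.42, SE 0.062, edgeR adjusted p = 1.34e-11), at least 66.2% in each mouse. Crhr1, the stress hormone receptor, averaged 62.0% ± 3.67. On the CAST side were Nts, the peptide neurotensin, with 25.7%, 36.7%, 40.8%, 23.9% and 30.1%, and Sstr2, a somatostatin receptor, with 29.4%, 28.4%, 39.3%, 29.7% and 38.3% (log2 differences -1.07 and -0.99; edgeR adjusted p = 6.67e-06 and 9.51e-08).

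Immediate early genes, which neurons switch on with activity, were called less often than genes at large: 7 of 19 with BL6 higher and 2 with CAST higher (5 and 4 with own scaling), or 47.4%, against 62.4%. No test of that gap was made. Klf4, a zinc finger factor, averaged 61.2% ± 3.07, Dusp1, a phosphatase that ends MAP kinase signals, 60.6% ± 1.93, and Fosl2 of the AP-1 family 42.8% ± 0.502 (SD, n = 5 each; edgeR adjusted p = 2.41e-08, 3.9e-08 and 2.04e-10).

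Of 36 lysosomal genes, 21 were called BL6 higher and 8 CAST higher, against 39.1% and 23.3% of all genes (19 and 11 with own scaling). The median log2 difference was 0.16, against 0.06. Tpp1, a peptidase lost in a childhood storage disease, had shares of 63.5%, 61.4%, 61.9%, 61.3% and 63.4% (edgeR adjusted p = 9.63e-10), and Npc2, a cholesterol carrier, averaged 58.8% ± 1.54. Ctsl, the protease cathepsin L, lay on the CAST side at 40.1% ± 1.84. Of 34 oxidative phosphorylation genes, 16 were called BL6 higher and 9 CAST higher (10 and 13 with own scaling), or 73.5% (all genes, 62.4%). Atp5h of the ATP synthase stood at 66.1%, 64.8%, 65.5%, 64.3% and 65.4%, and cytochrome c, Cycs, and the cytochrome oxidase gene Cox7c averaged 35.9% ± 0.684 and 38.4% ± 0.737. Atp5h and Cox7c each match 4 pseudogenes, and Cycs matches 51 other genes.

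Detoxification genes held some large differences. Of 37 measured, 15 were called BL6 higher and 12 CAST higher (14 of each with own scaling), or 73% (all genes, 62.4%). Of this list 10.8% passed 2-fold, against 6.82% of all genes. Gstm7 had 228, 210, 183, 263 and 218 BL6 reads in old mice 1 to 5, against 1676, 1439, 1180, 1665 and 1712 CAST reads (log2 difference -2.78, SE 0.046, edgeR adjusted p = 1.13e-16), with 18.2% of its counts assigned to a copy. Glo1, which clears the toxic sugar product methylglyoxal, had shares of 27.0%, 28.1%, 27.3%, 27.1% and 26.0% (log2 difference -1.43, SE 0.029, edgeR adjusted p = 1.25e-15). On the BL6 side were Gsta4, a glutathione transferase for lipid peroxidation products, with 76.3%, 75.3%, 77.7%, 77.2% and 77.3% (log2 difference 1.74, edgeR adjusted p = 1.09e-14), and Gstp1 of the pi class with 85.3%, 76.9%, 73.6%, 76.8% and 80.6% (log2 difference 1.83, edgeR adjusted p = 1.24e-11). Within each of these 4 genes all mice of both crosses agreed in side. Gstp1 matches 2 other genes.

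Cholesterol synthesis genes were called 9 of 21 with BL6 higher and 5 with CAST higher (7 and 5 with own scaling), or 66.7% (all genes, 62.4%). Hmgcs1, an early enzyme of the pathway, had shares of 38.1%, 39.6%, 38.7%, 40.5% and 39.7% (edgeR adjusted p = 2.74e-12), and the later enzymes Lss and Cyp51 averaged 41.1% ± 2.30 and 58.5% ± 0.994, on opposite sides. Of 30 cytosolic ribosomal protein genes, 14 were called BL6 higher and 13 CAST higher (10 and 13 with own scaling), or 90% (all genes, 62.4%). Past 2-fold were 23.3% of them, against 6.82% of all genes. The largest after Rpl6 were Rpl28 at 18.1% ± 1.19, Rpl27 at 19.8% ± 1.08 and Rps6 at 27.3% ± 0.801 (SD, n = 5 each). These 3 match 4, 7 and 10 pseudogenes, and of the gene types named above processed pseudogenes had the highest share past 2-fold, 43.3%, so the shares of ribosomal protein genes are uncertain.

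Enzymes of DNA methylation write, read and erase the mark that keeps imprints and silent chromatin. Of 15 measured, 7 were called BL6 higher and 4 CAST higher (6 of each with own scaling), or 73.3% (all genes, 62.4%), none past 2-fold. Mbd4 and Tdg, glycosylases that remove thymine from mismatches at methylated sites, averaged 64.0% ± 4.29 and 60.2% ± 1.71 (edgeR adjusted p = 5.81e-07 and 3.11e-08). Apobec1, a cytidine deaminase, averaged 62.6% ± 4.82, and Gadd45g, linked to active demethylation, 56.3% ± 3.64 (edgeR adjusted p = 0.000258 and 0.0024). Mbd4 and Tdg match 120 and 4 other genes. All 4 lay on the BL6 side in all 5 mice.

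Of 35 neurodegeneration genes, 14 were called BL6 higher and 9 CAST higher (12 and 14 with own scaling), or 65.7% (all genes, 62.4%). Ide, the insulin- and amyloid-degrading enzyme, had shares of 71.4%, 70.9%, 69.7%, 70.5% and 70.1% (log2 difference 1.25, SE 0.030, edgeR adjusted p = 1.11e-14), and Vcp, an ATPase of protein quality control, had 66.1%, 68.9%, 68.2%, 68.7% and 67.8% (log2 difference 1.09, SE 0.024, edgeR adjusted p = 2.49e-15). Both were past 2-fold in the fit. Lrrk2, a kinase of Parkinson's disease, averaged 60.9% ± 0.852 (edgeR adjusted p = 2e-11). App, the amyloid precursor gene, was read 95071 to 142337 times a mouse at 49.7%, 50.1%, 50.1%, 50.2% and 49.8% and was not called (log2 difference 0.00, SE 0.012, edgeR adjusted p = 0.945).

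A further list held genes for which functional variants of BL6 or other inbred strains have been reported. Of 14 measured, 7 were called BL6 higher and 6 CAST higher (6 of each with own scaling), or 92.9% (all genes, 62.4%). Besides Gabra2, Glo1, Mx2 and Ide these include Nnt, a mitochondrial transhydrogenase that lacks exons in the C57BL/6J substrain, with 36.4%, 41.1%, 42.3%, 37.5% and 37.8% and, under a second identifier, 35.0%, 40.3%, 41.4%, 36.4% and 36.0% (edgeR adjusted p = 1.67e-08 and 9.28e-09). Apobec3, an antiretroviral deaminase, averaged 58.7% ± 4.45 and Il3ra, a cytokine receptor chain, 29.7% ± 2.98 (SD, n = 5 each; edgeR adjusted p = 0.000832 and 2.34e-08). Smaller differences were called for Cdh23, a cadherin of hair cells, at 55.1% ± 3.42, Kcnj9, a G protein-gated potassium channel, at 52.9% ± 0.860, Alad of haem synthesis at 52.3% ± 0.828, and Cyfip2, an actin regulator, at 51.6% ± 0.415 (SD, n = 5 each). The call of Alad held in only 7 of 17 alternative fits and filters. Among others it was lost without old mouse 3 or 4, without old mouse 5 (edgeR adjusted p = 0.0825) and with own scaling (0.199). Cdh23 was not called in old mice 3 and 4 alone, those with a CAST mother (log2 difference 0.12, edgeR adjusted p = 0.395). Fv1, a retrovirus restriction gene, was the member not called, at 51.1% ± 1.03 (edgeR adjusted p = 0.46). The 2 identifiers of Nnt overlap each other.

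The strain differences of old mice were found again in young mice. In the young, 10879 of 17050 genes were called (63.8%). Of 10310 genes called in old mice and tested in young ones, 10152 had the same sign in the young and 9038 were also called with that sign. Of 994 genes past 2-fold in old mice and tested in young ones, 987 were called with the same sign and 2 had the opposite sign. In young mice Cd59a ran from 64.2% to 82.4% (median 74.3%), Gabra2 from 30.3% to 38.2% (median 34.8%), Npy2r from 64.0% to 74.6% (median 68.8%) and Gsta4 from 73.2% to 82.9% (median 78.9%), each on the side it had in old mice. The difference between ages was tested itself as the BL6 term by age over all 11 mice. It was called for 30 of 16466 genes (0.182%), 16 with a higher BL6 share in old mice and 14 with a lower one. The split depends on single mice: without old mouse 4 there were 2 higher and 14 lower, and without old mouse 3 there were 5 and 11. The total was 87 without young mouse 4 and 127 without young mouse 5. Nothing says how old and young mice relate by litter, parents or batch, so age cannot be told apart from these.

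The genes with the smallest p in that test are neighbours on chromosome 12, between 79130777 and 79296304. Vti1b, a SNARE of endosomal fusion, had BL6 shares of 24.1%, 24.7%, 25.7%, 25.2% and 24.9% in old mice 1 to 5, against 39.4% to 42.7% (median 40.4%) in young mice, a log2 difference of old minus young of -1.04 (SE 0.035, edgeR adjusted p = 1.07e-11). Zfyve26, a phosphoinositide-binding protein of autophagy, had 34.2% to 35.9% in old mice, against 50.5% to 52.7% (median 51.1%) in young mice (-0.97, SE 0.040, edgeR adjusted p = 1.13e-10). Rdh11, a retinol dehydrogenase, and Arg2, the mitochondrial arginase, shifted alike, by -1.01 and -0.94 (edgeR adjusted p = 2.02e-09 and 0.000217), as did the antisense gene Gm48780 inside Arg2 at -1.18 (edgeR adjusted p = 0.0113, and 0.0791 and 0.0989 without old mouse 3 or 4). The old and young mice did not overlap in any of the 5, and Arg2 overlaps Vti1b and Gm48780. Pigh, a neighbour outside that stretch, stood at 50.2% ± 1.47 in old mice and at 52.5% ± 2.51 in young ones (SD, n = 5 and 6), with an edgeR adjusted p of 0.7196.

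**Figure D5:**
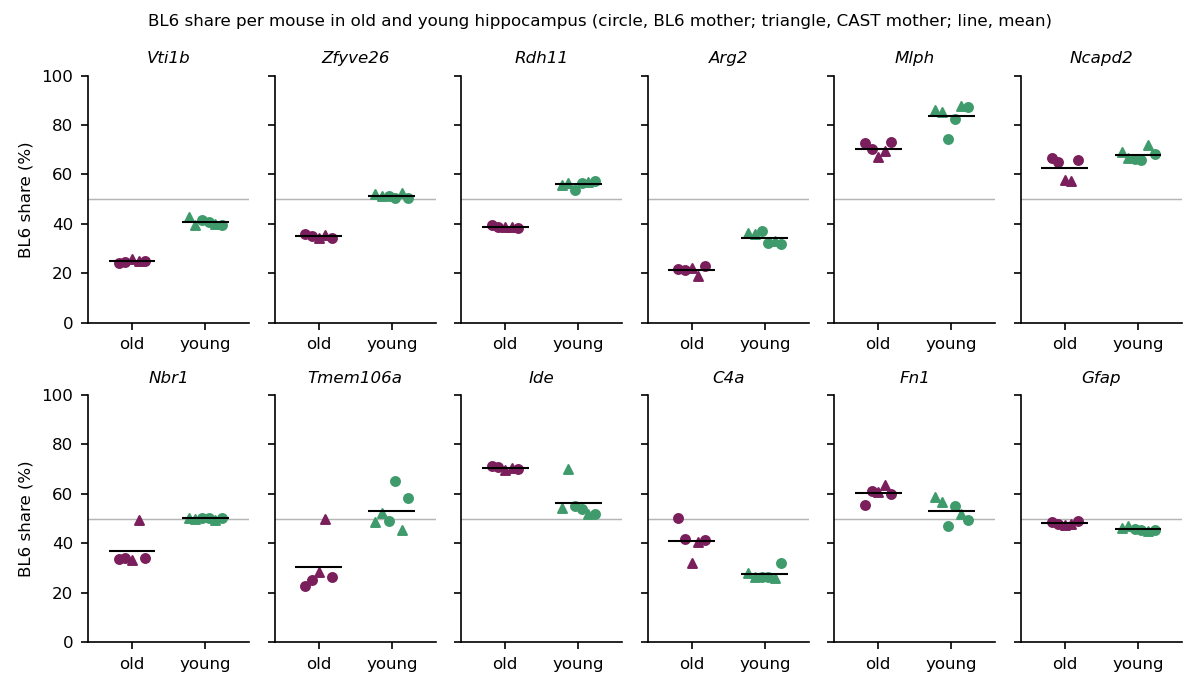
BL6 share of allelic reads (%) in each of 5 old mice (left in each panel) and 6 young mice (right) for 12 genes whose share differed between ages; circles are mice with a BL6 mother, triangles mice with a CAST mother, and bars the mean. Old and young mice are separate for Vti1b, Zfyve26, Rdh11 and Arg2, while in Nbr1 and Tmem106a old mouse 4 lies with the young mice, and in Ide young mouse 2 lies with the old mice.

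Mlph, which links melanosomes to myosin, was on the BL6 side at both ages, at 70.5% ± 2.47 in old mice and at 83.8% ± 5.04 in young ones (SD, n = 5 and 6; edgeR adjusted p = 0.0034). Ncapd2, a condensin subunit, had shares of 66.6%, 65.0%, 57.9%, 57.3% and 65.9% in old mice, lowest in old mice 3 and 4 with a CAST mother, and 65.8% to 71.9% (median 67.3%) in young mice (log2 difference -0.39, edgeR adjusted p = 0.001). The small RNA gene Scarna10 and the predicted gene Gm28967 lie inside Ncapd2, carry the same counts as each other and shifted by -0.47 each (edgeR adjusted p = 0.000615).

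The following genes of the 30 were chosen after their values were seen. Nbr1, a receptor of selective autophagy, had BL6 shares of 33.8%, 34.3%, 33.5%, 49.6% and 34.0% in old mice 1 to 5, against 49.6% to 50.5% (median 50.2%) in young mice (log2 difference -0.74, SE 0.10, edgeR adjusted p = 0.0034). Old mouse 4 stood beside the young mice, and the other 4 old mice lay within 1 percentage point of each other. Its neighbour Tmem106a, of a family of lysosomal membrane proteins, had 23%, 25.2%, 28.5%, 50% and 26.4% in old mice, against 45.3% to 65.1% (median 50.7%) in young mice, so that old mouse 4 stood apart there too (edgeR adjusted p = 0.0327, which was 0.0549 to 0.229 without old mouse 1, 2, 3 or 5 and 0.0714 to 0.0944 without young mouse 1, 2 or 6). Ide ran from 69.7% to 71.4% in old mice, while young mouse 2 stood at 70.1% and the other young mice between 51.8% and 55% (log2 difference 0.87, SE 0.14, edgeR adjusted p = 0.0102); without old mouse 3 or 4 the call was lost (adjusted p = 0.0675 and 0.0903). Btaf1 and Fgfbp3 lie nearby on chromosome 19, and there young mouse 2 had 62.1% and 69.0%, inside the old ranges of 60.8% to 65.2% and 64.02% to 69.6%. Their own tests between ages were not passed (edgeR adjusted p = 0.0567 and 0.1069). Cpeb3, which lies between them and Ide, stood at 49.3% ± 0.782 in old mice and at 49.7% ± 0.365 in young ones (SD, n = 5 and 6).

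Complement, astrocyte and matrix genes were also among the 30. C4a, the duplicate of C4b, had BL6 shares of 50.2%, 41.8%, 31.995%, 40.5% and 41.4% in old mice 1 to 5, against 26.0% to 32.1% (median 26.6%) in young mice (log2 difference 0.81, SE 0.13, edgeR adjusted p = 0.0108, and 0.0989 without old mouse 4), and its reads cannot be told from those of C4b, whose own difference between ages was -0.17 (edgeR adjusted p = 0.123). Gfap moved by 0.13 (SE 0.022, edgeR adjusted p = 0.0263), with 47.3% to 49.1% in old mice, against 45.2% to 47.0% (median 45.7%) in young mice, and the groups did not overlap; the call was lost without old mouse 1, 3, 4 or 5 or young mouse 3 or 6 (edgeR adjusted p = 0.0587 to 0.224). Fn1, the matrix protein fibronectin, averaged 60.2% ± 3.0 in old mice and 53.1% ± 4.42 in young ones (SD, n = 5 and 6; log2 difference 0.44, edgeR adjusted p = 0.047), and its call was lost without old mouse 2, 3, 4 or 5 or young mouse 2, 3 or 6 (edgeR adjusted p = 0.0583 to 0.307). For C3 the shares were 19.3%, 20.8%, 20.7%, 23.1% and 16.1% in old mice and 9.12% to 19.5% (median 12.6%) in young mice, and the test of that difference was not passed (0.73, SE 0.16, edgeR adjusted p = 0.094).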

How the data were processed

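RNA from the hippocampus of 11 female F1 mice (5 old, 6 young) was measured by paired-end RNA-seq. Per the submitters' processing notes, bcl2fastq 2.20, Trim Galore 0.6.6, HISAT2 2.1.0, SAMtools 1.10 and featureCounts (Subread 2.0.0) were used with GRCm38. The authors deposited whole-number counts per gene, over all reads and for each allele, with no normalization; the column name i4fb was taken to mean BL6. TPM values that the authors deposited were not used. Annotation release, strand setting and allele assignment are not given in the sources used here.

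From the allelic counts, 17015 autosomal genes read at least 50 times per old mouse entered edgeR 4.0.16 (R 4.3.3; quasi-likelihood test, 10 columns; terms for mouse, maternal allele and BL6 allele). Both columns of a mouse had the same library size, so that a surplus of BL6 reads is kept. Pairing comes from the design, since both columns are 1 animal. P-values were Benjamini-Hochberg adjusted over all genes tested, and a gene was called at an adjusted p under 0.05. The SE is the absolute log2 difference over the root of the F statistic. Young mice were fitted likewise, and all 11 mice in a fit with an age by allele term. The code was tested on simulated data. Libraries carry no molecular identifiers, so read numbers cover counting error only. No 2 old libraries agreed within sampling noise: chi-square per gene was at least 41.89 in all 10 pairs.

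Members and gene lists were chosen with earlier results of these data known. Named genes are, first, the 8 largest called differences each way among protein-coding genes that passed a filter. It asked for at least 200 allelic reads on average, at least 5% of reads from the weaker allele and all 5 mice on 1 side. Of each list, up to 4 called members with all 5 mice on 1 side are named by size of difference, without the limits on reads and weaker allele. Its deepest uncalled member is named too. Others are the reported-variant list, up to 5 nearly monoallelic genes each way by depth, the 8 smallest p of the age term and the imprinted genes checked. C4b, Serpina3n, Gfap, Sostdc1, C4a, Nbr1, Tmem106a, Gm48780, Btaf1, Fgfbp3, Cpeb3, Pigh and the tissue markers Prox1, Fibcd1 and Drd2 were chosen after their values were seen. Not every gene meeting these criteria is reported here. Genes were placed with GENCODE M21 (55141 of 55401 matched), near-identical copies were sought with blastn 2.17.0, and promoters are RefSeq's (GRCm38.p6). Alternatives were DESeq2 1.42.0, limma 3.58.1, own TMM scaling, other filters, no parent term, no replicate block, each cross alone and leaving out each mouse.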

Additional observations from a re-analysis of the deposited data

Results flagged for a closer look

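In the 5 old mice, 11 of 157 genes checked (7.0%) had 1 mouse whose BL6 share stood apart from the other 4. Chance alone flags about 1 in 20 groups, but the 157 include genes chosen after their values were seen, such as Nbr1, Tmem106a and Gm48780. The 7.0% is therefore no test against that rate. The mouse was old mouse 1 in 4 of the 11 genes, old mouse 2 in 4 and old mouse 4 in 3. Old mouse 1 had 14.12% for Gm48780, against 18.02% to 19.44% in the others, 60.55% for Rgs5, against 65.31% to 66.92%, 16.06% for Rpl28, against 18.28% to 18.91%, and 54.49% for Ttr, against 48.67% to 49.96%. Old mouse 2 had 57.27% for Aldh1l1, against 55.28% to 55.69% in the others, 53.63% for Tnr, against 54.7% to 54.99%, 58.16% for Trf, against 56.63% to 56.98%, and 17.39% for Tspan10, against 0.0% to 1.3%. Old mouse 4 had 39.65% for Cox7c, against 37.73% to 38.24% in the others, 49.58% for Nbr1, against 33.5% to 34.3%, and 50% for Tmem106a, against 23% to 28.49%.

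The BL6 against CAST difference itself differed between old and young mice, by the edgeR age term, in 15 of the genes named. Age cannot be told apart here from the litter, parents or batch of the mice. The old minus young log2 difference was -1.04 for Vti1b, -1.01 for Rdh11, -0.97 for Zfyve26, -0.94 for Arg2 and -1.18 for Gm48780, which are neighbours on chromosome 12. It was -0.39 for Ncapd2 and -0.47 each for Scarna10 and Gm28967, which share reads. It was -0.74 for Nbr1 and -1.37 for its neighbour Tmem106a, where old mouse 4 stood apart. It was -1.18 for Mlph, 0.87 for Ide, 0.81 for C4a, 0.44 for Fn1 and 0.13 for Gfap.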

How the results depend on the processing

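For 149 called genes named, under up to 17 alternatives each, no sign turned in 2512 pairs of gene and alternative, and 71 pairs fell short of the threshold, most of them without the replicate block. The count of 10622 called genes was 8356 with DESeq2, 9598 with limma, 10349 without the parent term, 9546 and 8478 in mice with a BL6 or a CAST mother alone, and 8455 to 13667 under other filters. Without each old mouse in turn it was 9037 to 10336; leaving out old mouse 3 or 4 leaves 1 mouse with a CAST mother, assumed to vary like the others. Without the replicate block that pairs both columns of a mouse, 2690 genes were called, 2689 of them as before, and 103 in place of 450 list members. Differences of at least 2-fold numbered 1161, but 3010 with at least 10 allelic reads on average, 499 with at least 200 in every old mouse and 3638 with no filter; these alternatives test other sets of genes. The age term called 16 to 127 genes in place of 30 when a mouse was left out, and the maternal term 105 to 236 in place of 136; the cause was not tested. Vti1b, Zfyve26, Rdh11, Ncapd2, Scarna10, Gm28967 and Nbr1 were called for age in all 14 alternatives, Ide in 12, Gfap in 8 and Fn1 in 7. DESeq2 gave no adjusted p for Arg2, C4a, Gm48780, Mlph and Tmem106a, which were called in 13, 12, 11, 13 and 5.

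Of all genes called, 12 were called with the other sign in mice with a BL6 mother alone and 23 in mice with a CAST mother alone. Among the genes named, log2 differences changed sign only in genes not called. With own TMM scaling App stood at -0.0547, Canx at -0.0509, Cnp at -0.0418, Grin2b at -0.0378 and Csf1r at -0.0121. App was also -8e-04 without the parent term, -0.0083 in mice with a BL6 mother, -0.0022 in old mice 1, 4 and 5 and -0.003 to 0.0037 without each old mouse. Canx was -0.006 to 0.0157 and Sostdc1 -0.9146 to 0.6015 without each old mouse. Sostdc1 was 0.1827 with DESeq2, 0.227 with limma and 1.117 in old mice 1, 4 and 5, against -0.6604 in all 5, and Ttr was 0.0064 without the parent term; the cause was not tested. The alternative of old mice 1, 4 and 5, and those of the young and maternal counts, were chosen after seeing the data.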
